A study of Oryza sativa with 14 samples.

Results

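The genes described here encode proteins of the cytosolic large (60S) ribosomal subunit of rice. They were chosen by their descriptions in the deposited expression table, which had to name a 60S or 60S acidic ribosomal protein and could not name chloroplast, mitochondria or another subunit. The rule found 100 of 38978 genes, spread over 42 proteins of distinct L or P number. It found no gene described as L3, L8 or L41, so sums over the members need not cover the whole subunit. RNA was measured by RNA-seq in seedlings of wild type (WT) plants, labelled as the cultivar Kitaake, and of osnat10 plants, a line named after the RNA cytidine acetyltransferase OsNAT10. Both genotypes were grown in Yoshida nutrient solution under short days, and 3 libraries were made of each. The labels give neither the kind of osnat10 allele nor the number of lines. The OsNAT10 gene's own RNA level was not analysed here, because no description in the table names it, so the genotype labels carry no check from the targeted gene. Libraries of ac4C pull-downs from the same study were not analysed here.

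The 60S subunit joins amino acids into a chain, a reaction carried out by its ribosomal RNA, while its proteins fold and hold that RNA, form the tunnel through which the new chain leaves, and build a flexible stalk that receives the translation factors. Plants keep several gene copies for most of these proteins, and the mRNAs of both subunits are abundant in growing tissue. The proteins of chloroplast and mitochondrial ribosomes are encoded by other genes.

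Levels are given in RPKM (reads scaled by gene length and by the reads of the library), which allows comparison between genes of different length. The 6 libraries held between 13688629 and 15583776 recovered reads over genes. WT libraries varied more than osnat10 libraries: the median SD of log2 values over all tested genes was 0.365 in WT and 0.18 in osnat10. WT replicate 1 stood apart most, with a library weight of 0.271 in limma against 0.723 to 2.52 for the other libraries, and results that turn on it are given with and without it. Members varied less, with a median SD of 0.131 in WT and 0.138 in osnat10. The labels do not say whether replicates are separate plants or pools. The p-values therefore set the genotype difference only against the spread between these samples.

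The 60S genes together had higher values in osnat10 than in WT in every library. Their summed level was 10792, 11330 and 11844 RPKM in the 3 WT libraries and 15967, 14839 and 17376 RPKM in the osnat10 libraries. The lowest osnat10 sum lay above the highest WT sum, and the ratio of the means was 1.42. As a share of all RPKM in the library, the sum was 2.12% ± 0.147 (SD, n = 3) in WT and 2.95% ± 0.210 (SD, n = 3) in osnat10. After scaling the libraries by the median of ratios, the sums did not overlap either and the ratio of the means was 1.32. In whole-seedling RNA, fewer cells of a type and less RNA per cell cannot be told apart.

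**Figure D1:**
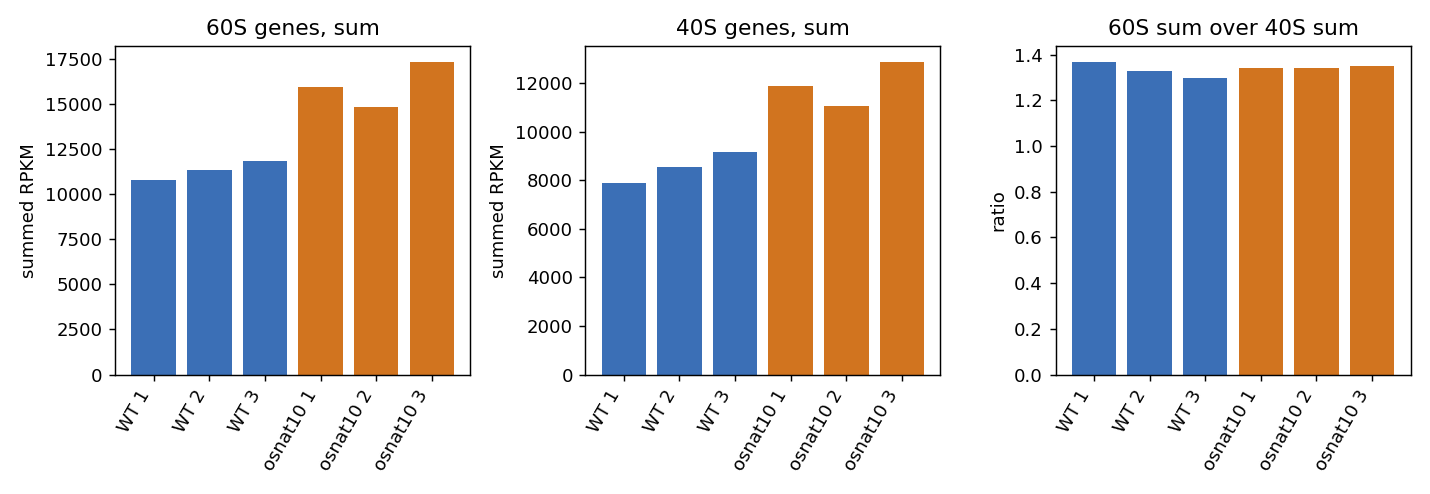
Summed RPKM of the 60S genes (left) and of the 40S genes (middle), and the ratio of these sums (right), as 1 bar per library, WT in blue and osnat10 in orange. The 60S sum runs from 10792 to 11844 in WT and from 14839 to 17376 in osnat10, while the 60S to 40S ratio lies between 1.30 and 1.37 in all 6 libraries.

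Gene by gene, 94 members had at least 0.5 RPKM in 3 or more libraries and were tested with limma among 24380 genes. The log2 fold change on the log2(RPKM + 0.5) scale was positive, that is higher in osnat10, for 86 members and negative for 8. Positive values made up 91.5% of the members and 59.9% of all tested genes. The median log2 fold change was 0.49 over the members and 0.11 over all tested genes, and the members' quartiles were 0.31 and 0.64. At an adjusted p under 0.05 (limma, Benjamini-Hochberg over all tested genes), 0 of the 94 members were called in either direction, beside 0.152% of all tested genes, and the lowest adjusted p of a member was 0.0552. At an unadjusted p under 0.05, 61 members had higher values, beside 13.6% of all tested genes, and 2 had lower values, beside 5.69%. Without osnat10 replicate 1, 2 or 3, the 61 became 43, 49 or 35. Over all tested genes, the number with an unadjusted p under 0.05 in either direction fell as well. It was 4693 with all libraries, and 2932, 3364 or 2617 without osnat10 replicate 1, 2 or 3. Rescaling with no library left out also lowered the 61, to 43 by median of ratios and to 44 by quantiles. The number over all tested genes did not fall under these scalings, at 4888 and 4914.

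In 73 members every osnat10 library lay above every WT library, which was true of 17.2% of all tested genes. In 2 members every osnat10 library lay below every WT library, beside 7.79% of all tested genes, and in the other 19 the genotypes overlapped. After median of ratios scaling, 65 members lay above, beside 12.4% of all tested genes. Osnat10 replicate 3 held the highest value of the 6 libraries in 73 members, and WT replicate 1 held the lowest in 54, where 16.0% and 36.1% of all tested genes did so (this count was added after the values had been seen).

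The proteins of the small (40S) subunit, which pairs with the 60S subunit and reads the mRNA, had values of similar size. Of 66 tested 40S genes, 63 had a positive log2 fold change, the median was 0.48, and 49 had every osnat10 library above every WT library. The ratio of the 60S sum to the 40S sum was 1.37, 1.33 and 1.30 in WT and 1.34, 1.34 and 1.35 in osnat10, so the osnat10 ratios fell inside the WT range. The upper end of that range was WT replicate 1 alone. Without it, every osnat10 ratio lay above the ratios of the other WT libraries. Organelle-type ribosomal protein genes had a median of 0.11, equal to that of all tested genes, and 7 of 61 lay above WT in every library. Translation initiation and elongation factors had a median of 0.08, with 8 of 55 above. Ribosome biogenesis genes, whose products process ribosomal RNA and assemble subunits, had a median of 0.34, with 6 of 19 above. As shares, the genes above were 74.2%, 11.5%, 14.5% and 31.6% of these lists in turn. Over all tested genes the share was 17.2%. The differences between these lists were not tested.

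Markers of particular cell types differed between libraries. The summed level of 8 root marker genes was 419 to 768 RPKM in WT and 946 to 1150 in osnat10, with 0 of the 8 listed at 0. The summed level of 21 leaf marker genes (light-harvesting proteins and the Rubisco small subunit) reached 14924 RPKM in WT replicate 1. In the other WT libraries it was 1532 and 1116 RPKM, and in osnat10 it ran from 4754 to 5200 RPKM, with 5 of the 21 listed at 0 throughout. The summed level of 74 genes that mark dividing cells (histones, cyclin B and proliferating cell nuclear antigen) was 2347 to 2992 RPKM in WT and 2685 to 4635 in osnat10, with 14 at 0 throughout. Gene by gene, 46 of 54 tested dividing-cell markers had a positive log2 fold change, with a median of 0.58, above the 0.49 of the 60S genes, and 12 of the 54 had every osnat10 library above every WT library. Of the root markers 6 of 8 were positive with a median of 1.48, and of the leaf markers 12 of 15 tested with a median of 0.93. Every osnat10 library lay above every WT library in 5 root markers and 0 leaf markers, beside 17.2% of all tested genes. The ratio of the mean leaf sums, osnat10 over WT, was 0.848, with WT replicate 1 in the WT mean. Leaf marker fold changes without that library are not given here. The part of root, leaf and dividing-cell content in the 60S values was not tested.

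The largest fold change among the 94 tested members belonged to L40, which is made as a fusion with ubiquitin at its front end and is freed by proteases. A single gene of the table, Ub-CEP52-2 (Os09g0568400), is described as L40. Its level was 11.99, 13.1 and 17.8 RPKM in WT and 45.6, 32.6 and 50.3 RPKM in osnat10. The lowest osnat10 library stood well above the highest WT library, and the log2 fold change was 1.55 (SE 0.23, limma adjusted p = 0.0552). With a mean of 28.6 RPKM over the 6 libraries, it was also the lowest of the 41 proteins with a tested gene, whose median was 308 RPKM. Other ubiquitin fusions that the descriptions do not name as L40 were not counted here.

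The stalk receives the translation factors. P0 anchors the stalk on ribosomal RNA, P1 and P2 bind to it as pairs, P3 is a plant form of these acidic proteins, and L12 sits at the stalk's base. All 8 tested stalk genes had every osnat10 library above every WT library, with log2 fold changes from 0.35 to 0.98 and a median of 0.72. The ninth, a P2 gene (Os07g0470300), was listed at 0 in every library. Such non-overlap was seen in 77.7% of all tested members and in 17.2% of all tested genes. Whether the stalk genes differed from the other members was not tested.

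The P1 gene (Os08g0116500) was the most abundant 60S gene, with a mean of 611 RPKM over all libraries. It stood at 453, 423 and 435 RPKM across the WT libraries and at 762, 733 and 863 RPKM in osnat10, with a log2 fold change of 0.84 (SE 0.20, limma adjusted p = 0.104). The P2 gene that was read (Os01g0231700) stood at 56.1, 66.3 and 57.1 RPKM across the WT libraries and at 124, 92.6 and 129 RPKM in osnat10, with a log2 fold change of 0.93 (SE 0.18, limma adjusted p = 0.0830). In both genes the genotypes were clearly apart, and osnat10 replicate 2 was the lowest of its group. P3 (Os06g0701400) stood at 129, 107 and 118 RPKM across the WT libraries and at 188, 170 and 209 RPKM in osnat10, with a log2 fold change of 0.68 (SE 0.17, limma adjusted p = 0.108).

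P0 had 3 genes. The main one, YK704 (Os08g0130500), stood at 59.5, 59.5 and 61.4 RPKM across the WT libraries and at 100.5, 94.4 and 108 RPKM in osnat10, with a log2 fold change of 0.74 (SE 0.14, limma adjusted p = 0.0811). The gene ARP (Os11g0135400) stood at 5.57, 6.19 and 4.29 RPKM across the WT libraries and at 9.50, 10.9 and 12.7 RPKM in osnat10, with a log2 fold change of 0.98 (SE 0.22, limma adjusted p = 0.0926). In the first 2 genes the groups lay far apart. In the remaining copy (Os12g0133050) the groups nearly met, with 11.9, 16.9 and 19.1 RPKM in WT and 19.3, 20.6 and 20.4 in osnat10, and the log2 fold change was 0.35 (SE 0.20, limma adjusted p = 0.382), or 0.16 without WT replicate 1. The summed P1, P2 and P3 level was 8.29, 7.22 and 7.18 times the P0 level in the WT libraries and 8.31, 7.91 and 8.49 times in the osnat10 libraries, so these ratios overlapped. The overlap came from WT replicate 1. Without it, every osnat10 ratio lay above the ratios of the other WT libraries. The L12 genes were alike: RPL12 (Os04g0598200) stood at 117, 125 and 112 RPKM across the WT libraries and at 195, 182 and 196 in osnat10, and Os02g0699600 at 127, 135 and 140 across the WT libraries and at 218, 191 and 222 in osnat10.

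**Figure D2:**
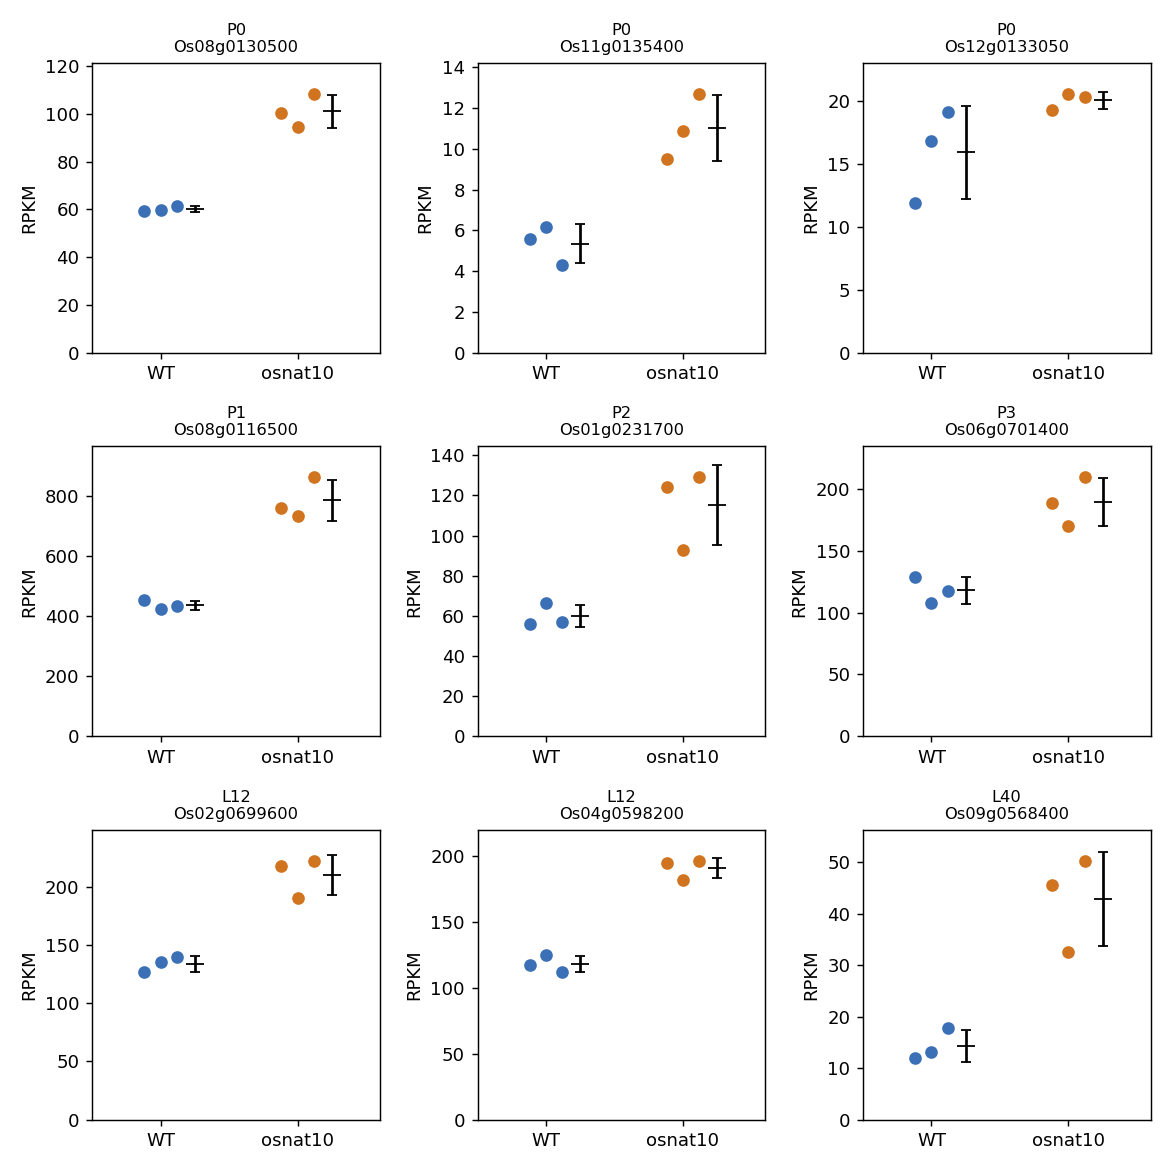
RPKM of the 8 tested stalk genes and of the L40 gene, 1 panel per gene, as 1 point per library (WT blue, osnat10 orange) with the mean and SD (n = 3) in black. In every panel the 3 osnat10 points lie above the 3 WT points, by a wide gap in L40 and by a narrow gap in the P0 copy Os12g0133050.

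The wall and rim of the exit tunnel were represented by 20 tested genes of 8 proteins. All 20 log2 fold changes were positive on the RPKM as deposited, from 0.07 to 0.99 with a median of 0.52, but those of L23A turned under median of ratios scaling and quantile normalisation and those of 2 L35 genes (Os02g0503400 and Os06g0732000) under quantile normalisation. In all, 14 genes had every osnat10 library above every WT library. That was 70.0% of this group, beside 77.7% of all tested members and 17.2% of all tested genes. L39, a very small protein that lines the tunnel, had the largest values. Its gene Os02g0797200 stood at 156, 133 and 142 RPKM across the WT libraries and at 279, 249 and 333 RPKM in osnat10, with a log2 fold change of 0.99 (SE 0.18, limma adjusted p = 0.0761). The other two L39 genes, Os02g0796900 and Os06g0181566, had log2 fold changes of 0.71 and 0.73, and neither overlapped. L23A, which sits at the tunnel's mouth near where the signal recognition particle docks, was at the other end of the range. Its gene OsRPL23A (Os01g0348700) stood at 178, 200.4 and 200.3 RPKM across the WT libraries and at 187, 194 and 228 RPKM in osnat10, so the groups overlapped, and the log2 fold change was 0.07 (SE 0.17, limma adjusted p = 0.855), which became -0.04 after median of ratios scaling.

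L5 and L11 enter the subunit together with the 5S ribosomal RNA. L5 (Os01g0896700), among the 5 most abundant genes, stood at 397, 446 and 486 RPKM across the WT libraries and at 572, 593 and 660 RPKM in osnat10, with a log2 fold change of 0.46 (SE 0.20, limma adjusted p = 0.261). These groups did not overlap. Of the 4 L11 genes, 3 lay above WT in every library and the fourth, Os02g0235600, had a log2 fold change of -0.01. One L11 gene, Os05g0207300, carries the symbol OsRPL5 but is described as L11, and the description was followed.

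L10, which reaches towards the catalytic centre, had high levels and small differences. Its main gene (Os05g0169100) stood at 409, 461 and 413 RPKM across the WT libraries and at 467, 480 and 508 RPKM in osnat10. The groups came close without overlap, and the log2 fold change was 0.18 (SE 0.19, limma adjusted p = 0.630), or 0.07 after median of ratios scaling. The other L10 gene (Os11g0220800) had 0.34. Both L24 genes, whose product bridges to the small subunit, lay above WT in every library with log2 fold changes of 0.39 and 0.42.

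**Figure D3:**
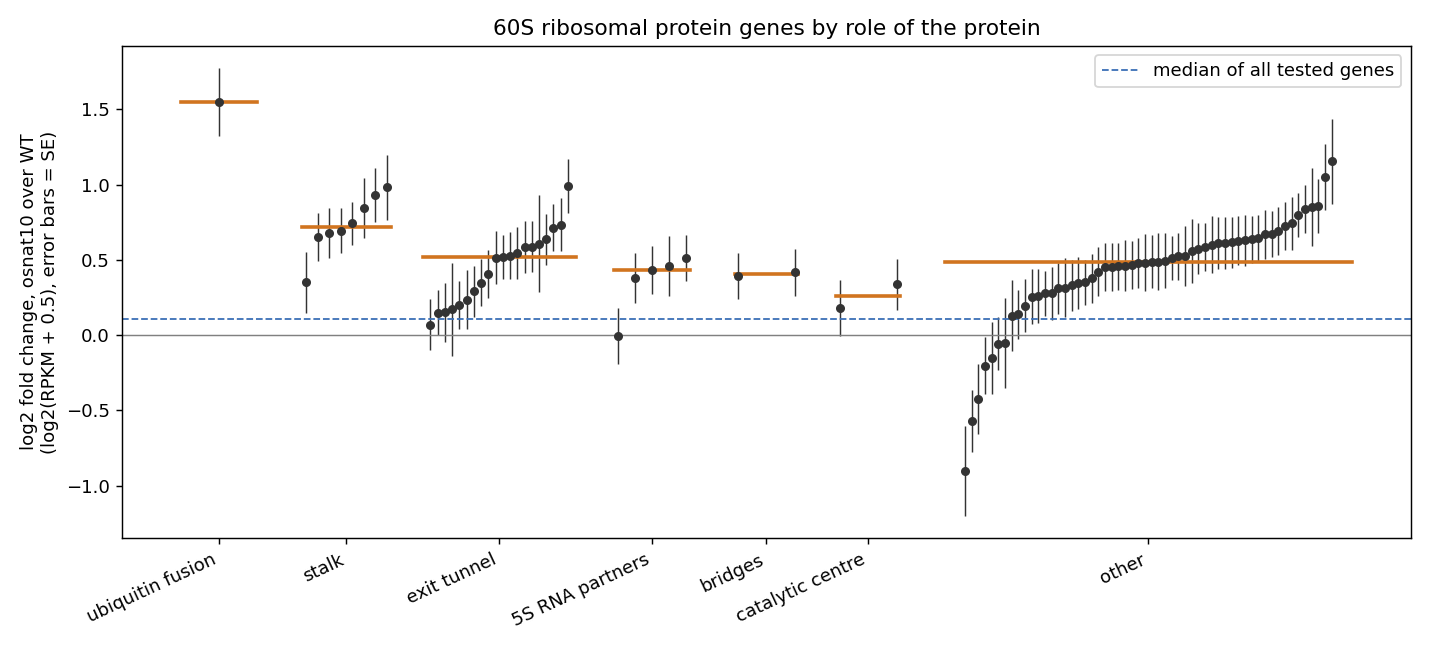
Log2 fold change of osnat10 over WT for the 94 tested 60S genes, grouped by the role of the protein and sorted by size within a group. Points are genes, error bars are SE from limma, orange lines are group medians and the dashed line is the median of all tested genes (0.11). The stalk genes have a median of 0.72 and the L40 gene stands at 1.55, while the 8 negative values are 1 L11 gene and 7 of the other proteins.

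The remaining 56 tested genes encode the proteins that were not placed in a role group. Their median log2 fold change was 0.48, 42 lay above WT in every library and 2 below. The largest log2 fold change among them was 1.16 (SE 0.28, limma adjusted p = 0.107) in OsRPL36.2 (Os01g0840700), a gene named after its values were seen. It stood at 14.0, 29.4 and 25.1 RPKM across the WT libraries and at 59.2, 42.0 and 47.8 RPKM in osnat10, without overlap. Those with the smallest p and a positive value included L35A and L38. L35A (Os05g0555800) stood at 109, 86.8 and 98.4 RPKM across the WT libraries and at 177, 165 and 183 RPKM in osnat10, with a log2 fold change of 0.84 (SE 0.16, limma adjusted p = 0.0811). OsRPL38 (Os11g0433900) stood at 173, 144 and 164 RPKM across the WT libraries and at 312, 250 and 313 RPKM in osnat10, with a log2 fold change of 0.86 (SE 0.18, limma adjusted p = 0.0917). The groups were well apart in both genes.

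Among the 5 most abundant members were also L37A (Os01g0679700) and L9 (Os09g0485900). L37A stood at 302, 338 and 343 RPKM across the WT libraries and at 471, 426 and 486 in osnat10, with a log2 fold change of 0.49 (SE 0.18, limma adjusted p = 0.203). L9, which lies near the factor-binding side of the subunit, stood at 270.4, 289 and 362 RPKM across the WT libraries and at 401, 437 and 483 in osnat10, with a log2 fold change of 0.53 (SE 0.20, limma adjusted p = 0.216). Neither gene overlapped between genotypes.

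Summed over gene copies, most proteins had higher values in osnat10. Of the 41 proteins with a tested gene, 40 had every osnat10 sum above every WT sum and L23A overlapped. Sums over copies were not made for other gene families, so this count has no matching share. Among all single tested genes with a mean of 100 RPKM or more, 33.3% had every osnat10 library above every WT library. The ratio of the mean sums ran from 1.05 for L23A to 3.00 for L40, with a median of 1.42. After median of ratios scaling, 36 of the 41 lay above WT in every library, and L7, L10, L15, L19 and L23A overlapped. The direction of L23A turned under that scaling, to a ratio of 0.979. The next highest ratios as deposited were 1.93 for P2, 1.80 for P1, 1.79 for L35A and 1.78 for L39. The proteins' mean sums differed more between proteins than between genotypes, from 28.6 RPKM for L40 to 864 RPKM for L17, with quartiles of 198 and 483 RPKM. L17 was the single protein whose most abundant copy differed between genotypes, Os09g0258600 in WT and Os10g0466700 in osnat10. In near-identical copies, the division of reads between genes is uncertain, and a sum over copies is less exposed to it than a single gene.

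**Figure D4:**
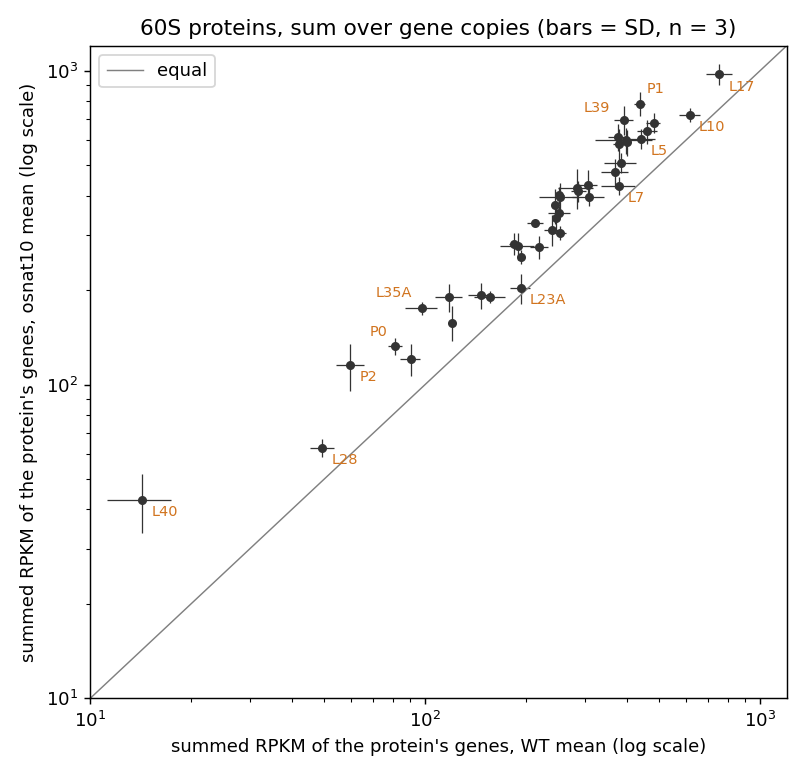
Summed RPKM over the gene copies of each of the 41 proteins, WT mean on the x axis and osnat10 mean on the y axis, both on log scales, with SD bars (n = 3) and a line of equal values. All points lie above the line, L23A closest to it (ratio 1.05, which turns to 0.979 after median of ratios scaling) and L40 farthest (ratio 3.00).

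Copies of the same protein did not all have the same direction. The highest and lowest copy differed by 1.39 in L7A, 0.91 in L44 and 0.90 in L13A on the log2 fold change scale. In L7A, a low copy described as a fragment (Os01g0924800) stood at 4.50, 9.70 and 7.43 RPKM across the WT libraries and at 4.13, 3.397 and 2.94 RPKM in osnat10, with a log2 fold change of -0.90 (SE 0.30, limma adjusted p = 0.173). All its osnat10 values lay below the WT values. The abundant L7A copies surf-3 (Os09g0507800) and OsRPL7A (Os08g0326400) had log2 fold changes of 0.49 and 0.35.

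L44 had 6 copies, all with positive log2 fold changes. The lowest of them, OsRPL44 (Os07g0523300), stood at 13.1, 10.8 and 12.2 RPKM across the WT libraries and at 26.3, 19.1 and 32.5 RPKM in osnat10, with a log2 fold change of 1.05 (SE 0.22, limma adjusted p = 0.0911), and the groups were apart. The copy Os07g0523100 had 0.14 and overlapped. The sum over the 6 was 244, 242 and 245 RPKM in WT and 372, 327 and 421 RPKM in osnat10. In L13A the main copy (Os03g0756000) stood at 185, 187 and 201 RPKM across the WT libraries and at 309, 304 and 313 RPKM in osnat10. The minor L13A copy (Os11g0425800) stood at 17.7, 25.04 and 24.6 RPKM across the WT libraries and at 21.4, 18.3 and 17.99 RPKM in osnat10, overlapping, with a log2 fold change of -0.21 (SE 0.19, limma adjusted p = 0.590). Without WT replicate 1, 2 or 3 that value was -0.36, -0.12 or -0.13.

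L7 had the second member below WT in every library. Os08g0542300 stood at 7.50, 10.6 and 9.28 RPKM across the WT libraries and at 5.36, 5.78 and 6.69 RPKM in osnat10, with a log2 fold change of -0.57 (SE 0.21, limma adjusted p = 0.198). The main L7 copies, Os08g0234000 and rpl7 (Os04g0605900), had log2 fold changes of 0.20 and 0.26. Summed over all copies, L7 had a ratio of 1.14.

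**Figure D5:**
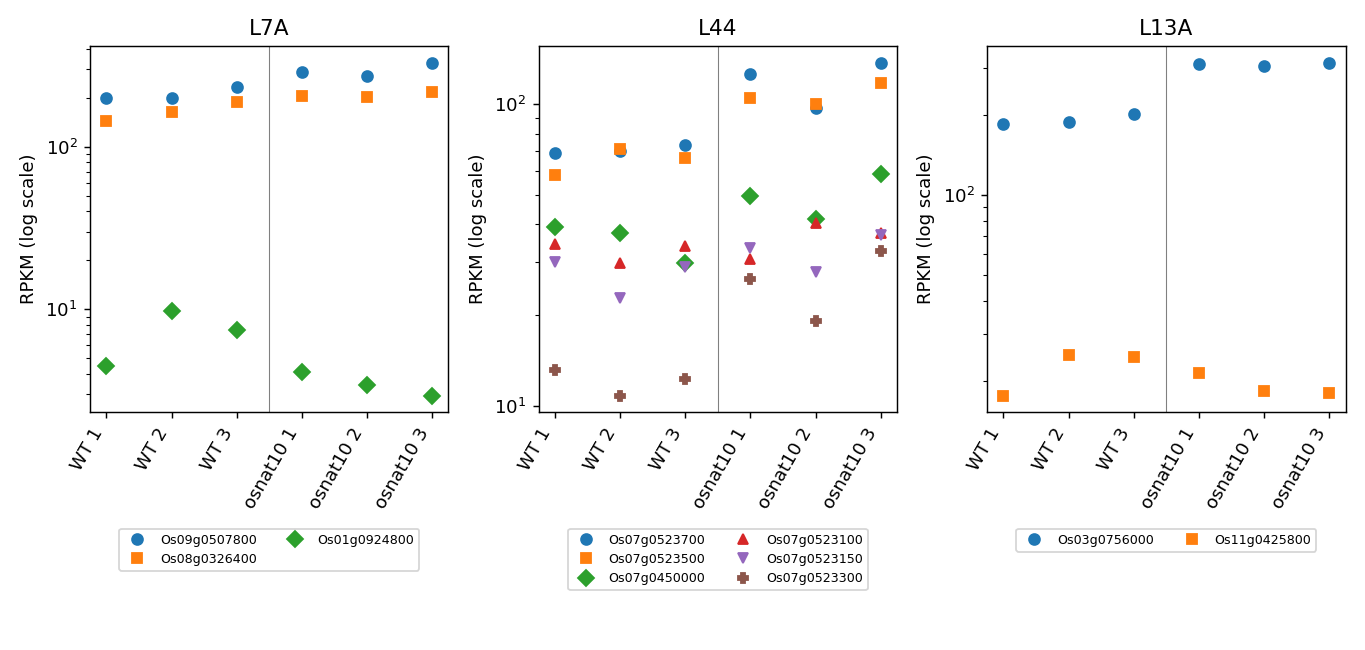
RPKM (log scale) of each tested gene copy of L7A, L44 and L13A, as 1 symbol per copy in each of the 6 libraries, with a vertical line between WT and osnat10. The abundant copies of L7A and L13A are higher in osnat10, while the low copies Os01g0924800 and Os11g0425800 have negative log2 fold changes of -0.90 and -0.21.

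All 8 negative values were in genes of low level. Below a mean of 40 RPKM, 11 of 19 tested members were positive, the median log2 fold change was 0.14 and 6 lay above WT in every library. Between 40 and 100 RPKM all 22 were positive with a median of 0.52, and from 100 RPKM upwards all 53 were positive with a median of 0.52, although L23A turned negative under both other scalings and the L35 gene Os02g0503400 under quantile normalisation. Among all tested genes the share of positive values was 59.8%, 59.6% and 63.0% in the same 3 classes, whose bounds were chosen after the values had been seen. Between 40 and 100 RPKM 20 members lay above WT in every library, and from 100 RPKM upwards 47. The share of all tested genes above WT in every library was 16.0%, 23.1% and 33.3% in the 3 classes. The 6 members left out of the test were lower still. Besides the P2 gene, an L13 gene (Os08g0162900) and the L32 gene rpL32_8.1 (Os08g0524600) were listed at 0 in every library. The L19 gene Os07g0670800 had 1 read in WT and 3 in osnat10, the L38 gene Os08g0541950 had 2 and 17, and the L7 gene Os11g0298500 had 2 and 0.

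Fold changes were smaller in the longest genes. Relative length was read from the reads behind each RPKM, a check added after the values had been seen. Of 3 classes of members by length, the 32 shortest had a median log2 fold change of 0.55, the 31 of middle length 0.51 and the 31 longest 0.35. All tested genes of the same length ranges had medians of 0.16, 0.18 and 0.12. Over the 94 members, Spearman's rho between log2 fold change and relative length was -0.323, and over all tested genes it was -0.079. These genes share their libraries, and rho is given as a description.

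Calls depended on WT replicate 1. Without it, limma called 31 of the 94 members higher in osnat10, beside 6.28% of all tested genes, and 1 lower, the L7A copy Os01g0924800, beside 4.84%. The 31 comprised 7 of 8 stalk genes, the L40 gene, 5 of 20 exit tunnel genes, 1 of the L24 genes and 17 of the other proteins. With libraries weighted by their spread, 19 members were called higher, beside 3.46% of all tested genes, among them 6 stalk genes and L40. Without WT replicate 3, 2 members were called higher, L40 among them, beside 3.63% of all tested genes.

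In the authors' deposited table, 20 members had an adjusted p under 0.05 and a higher value in osnat10, beside 2.42% of its genes. The authors' deposited table called 1 member lower, beside 3.79% of its genes. By role, the 20 in the authors' deposited table were 6 stalk genes, 2 L39 genes, L40 and 11 of the other proteins. The smallest adjusted p among members in the authors' deposited table was that of L40, 1.03e-05 at a log2 fold change of 1.48. P2 followed in the authors' deposited table with 0.84 (adjusted p = 0.00342), then the L39 gene Os02g0797200 with 0.88 (adjusted p = 0.00453) and P1 with 0.73 (adjusted p = 0.00528). The member called lower in the authors' deposited table was Os01g0924800, at -1.13 (adjusted p = 0.0387).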

How the data were processed

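RNA-seq of 3 WT and 3 osnat10 seedling libraries was used. Per the file headers, the authors deposited RPKM per gene and library, and a comparison table with a mean normalised signal, a log2 fold change with its standard error, and p-values deposited by the authors, under column names of DESeq2. Named tools in the submitters' processing notes are STAR 2.5.3a, deepTools and DESeq2, with IRGSP-1.0 as the build. How reads were counted, on which annotation and whether by strand is not given in the sources used here, and the division of reads among near-identical copies, overlapping genes and antisense partners is therefore uncertain. Fold changes of the authors' deposited table had the sign of the RPKM difference in 1681 of 1681 called genes.

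RPKM columns were matched to the RNA-seq samples by genotype and replicate number. Whole reads were recovered from the RPKM steps and the authors' mean signal in 99.98% of the values above 0, within 0.05 reads. RPKM are not counts, so limma 3.58.1 (R 4.3.3, intensity trend, no covariates) was run on log2(RPKM + 0.5) for 24380 genes with 0.5 RPKM or more in at least 3 libraries. This scale understates the fold changes of low genes. The Benjamini-Hochberg adjustment covered all tested genes. The script was tested on simulated data. Voom of limma on the recovered reads, and the counts of non-overlapping genes and family sums with their settings, were added after seeing the data. Other software was Python 3.11.15 with pandas 2.3.3, numpy 2.4.6 and matplotlib 3.10.9.

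The members, role groups, related lists and marker lists were chosen with earlier results of these data known. Named genes are the 8 tested members with the smallest p at a positive value, the 5 at a negative value, the 5 most abundant, every P0 to P3 and L40, and the copies of the 4 proteins with the largest difference between copies. The results of 1 of these proteins are not reported here. L12, L23A, L24, L11 and other genes were added after their values were seen. Proteins follow the L or P number of the description, and a gene described as L26A was placed with L26. A planned search of promoter motifs was not run.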

Additional observations from a re-analysis of the deposited data

How the results depend on the processing

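The number of 60S genes called higher was 0 with limma on the RPKM as deposited, 0 with other pseudocounts, filters, quantile normalisation and voom, 1 after median of ratios scaling, 19 with library weights and 20 in the authors' deposited table. Leaving out 1 library at a time gave 0 to 31 genes called higher and 0 to 1 called lower, and the authors' deposited table called 1 lower. The 31 were seen without WT replicate 1, and 2 without WT replicate 3; the cause was not tested. Over all tested genes, 30 genes were called higher and 7 lower, against 51 and 57 when scaled by median of ratios, 28 and 24 under quantile normalisation, 843 and 509 with library weights, 1532 and 1181 without WT replicate 1, and 886 and 99 without WT replicate 3. The median of all tested genes was 0.11 as deposited, 0.01 with scaling by median of ratios and -0.03 with quantile normalisation. Relative to it, the members' median ran from 0.31 to 0.42 over all settings, and 82 to 90 members were positive. The number of members above WT in every library ran from 63 (quantile normalisation) to 79 (without osnat10 replicate 2). Beside these stood 11.6% and 23.6% of all tested genes, and 17.2% beside the 73 members as deposited. Counts with 1 library left out compare fewer libraries, which makes non-overlap easier to reach. With the replicate block, 0 members were called and 86 were positive, and 43 instead of 61 had an unadjusted p under 0.05 and a higher value. Same-numbered libraries correlated at -0.06, -0.03 and 0.13 in their deviations from the genotype means, and differently numbered ones at -0.11 to 0.12. With 3 libraries per genotype, these values cannot settle whether the numbers mark a shared batch. The 6 members that were not tested fell below the level filter, and 3 of them had no read. Why their values were so low was not tested.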
